A study of Mus musculus with 1470 samples.

Results

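Cell cycle genes were followed through the cells of the mouse liver. The 32 genes, all listed as genes of the cell cycle, were chosen by name from the expression table and made up 32 of its 14915 gene rows. A cell was called cycling when at least 5 of the 32 members were at 10 or more RPKM in it, a level of reads scaled by the exon length of the gene and by the reads of the cell. By this count 46 of 1470 cells were cycling, or 3.13% (exact 95% binomial interval 2.30% to 4.15%, which covers counting error only).

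The cells were liver non-parenchymal cells (NPCs) of male wild-type C57BL/6J mice, obtained by collagenase perfusion in vivo and removal of most hepatocytes, then sorted one per well and sequenced by a full-length Smart-seq2 method that carries no molecular identifiers. The high-fat diet (HFD) group held 752 cells of 3 mice that ate the diet for 9 weeks from 5 weeks of age. The normal diet (ND) group held 718 cells of 3 mice on control chow. Only males were used, and the cells of a mouse come from 1 liver preparation, so the mouse and not the cell is the replicate in every comparison here.

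Before a cell divides it copies its DNA, and then it separates the copies. Origins are licensed by the MCM2-7 helicase, the sliding clamp PCNA tethers the polymerases, and ribonucleotide reductase and thymidylate synthase supply deoxynucleotides. Later, cyclins A and B with CDK1 and the Aurora and Polo kinases drive mitosis, the spindle checkpoint and APC/C time the separation of chromosomes, and kinesins and midzone proteins carry it out. In the adult liver most cells rest, resident macrophages are able to renew themselves in place, and lymphocytes divide after they are activated.

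The members fell into replication genes (Mcm2 to Mcm7, Pcna, Rrm1, Rrm2 and Tyms), 21 mitotic genes and Stmn1, which encodes a protein that destabilizes microtubules. Promoters of 27 of the 32 members were in the RefSeq table of the GRCm38.p6 build, and the 250 bases before each start were searched on both strands. The CCAAT box, the site of the factor NF-Y, was in 24 of these 27 promoters (88.9%) and in 37.5% of the 27025 genes of the table. The core letters of the cell cycle homology region (CHR), TTTGAA, were in 9 of 27 (33.3%) against 18.3% of all genes, and were in 1 of 9 replication genes, 4 of 10 cyclin, kinase and checkpoint genes and 4 of 8 spindle and chromosome genes. All 9 of these promoters also held CCAAT, and 7.34% of all genes held both. An E2F octamer (TTT and CGC around a pair of bases that are each C or G) was in 4 of 27 (14.8%) against 2.16% of all genes, in the replication genes Mcm5, Mcm6 and Mcm7 and in Cdk1. No motif searched contains another, and a match is a description of letters and not of binding.

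The promoters below are those of the member found in most cycling cells for each role that has one in the table, shown because the results turn on which of these ends of the cycle, replication or mitosis, a class of cells carried. They run 5′ to 3′ on the strand of the gene, with CCAAT and TTTGAA in capitals on whichever strand they were found. Pcna lies at chr2:132253181-132253430 on the minus strand, Birc5 at chr11:117848987-117849236 on the plus strand and Top2a at chr11:99024190-99024439 on the minus strand.
Pcna: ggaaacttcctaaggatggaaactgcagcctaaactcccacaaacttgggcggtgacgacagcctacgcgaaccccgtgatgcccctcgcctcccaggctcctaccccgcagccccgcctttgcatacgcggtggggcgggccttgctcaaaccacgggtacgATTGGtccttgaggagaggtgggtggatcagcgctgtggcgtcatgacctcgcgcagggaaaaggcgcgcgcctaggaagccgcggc
Birc5: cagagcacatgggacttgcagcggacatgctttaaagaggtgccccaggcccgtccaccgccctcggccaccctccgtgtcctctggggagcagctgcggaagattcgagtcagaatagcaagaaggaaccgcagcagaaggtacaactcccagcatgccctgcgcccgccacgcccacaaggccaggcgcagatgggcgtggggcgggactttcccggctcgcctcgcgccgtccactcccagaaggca
Top2a: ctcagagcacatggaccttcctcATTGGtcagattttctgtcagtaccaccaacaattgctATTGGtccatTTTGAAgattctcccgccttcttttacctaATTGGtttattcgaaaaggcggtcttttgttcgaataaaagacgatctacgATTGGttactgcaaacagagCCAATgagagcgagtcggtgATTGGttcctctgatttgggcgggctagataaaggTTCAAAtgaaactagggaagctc
Pcna held 1 CCAAT box, 87 bases before its start. Top2a held 6 CCAAT boxes and 2 CHR cores, the nearest core beginning 23 bases before the start. The Birc5 stretch held neither, and held no E2F octamer. Stmn1 had no entry in the table.

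Classes of cells were named from markers, with the members, other cell cycle genes and histone genes left out of the clustering. There were 476 endothelial-like cells. The ND mice gave 57, 54 and 51 T cell-like cells and the HFD mice 49, 77 and 17. B cell-like cells numbered 52, 31 and 38 on ND and 49, 55 and 21 on HFD, and Kupffer cell (KC)-like cells 49, 24 and 38 on ND and 52, 28 and 43 on HFD. There were also 50 natural killer (NK)-like, 43 monocyte-derived or dendritic-like, 35 hepatocyte-like, 31 neutrophil-like, 30 erythrocyte-like and 20 plasmacytoid dendritic cell (pDC)-like cells. The 10 leading genes of the clusters held Cd3d and Cd3e in T cell-like, Clec4f, Vsig4 and the C1q genes in KC-like and Cd79a and Cd79b in B cell-like clusters. The leading genes held 8 fixed markers in the NK-like cluster, 5 in the pDC-like and 4 each in the neutrophil-like and erythrocyte-like clusters. They held 6 in each of 2 endothelial-like clusters. Fewest were in the monocyte-derived or dendritic-like cluster, with 2 (led by S100a4, Alox5ap and Lgals3), and in the hepatocyte-like cluster and the other 2 of the 4 endothelial-like clusters, with 1 each. The median cell had 2480 genes at 1 or more RPKM, and the medians of the mice ran from 1595 in HFD mouse 2 to 3163 in HFD mouse 3. In HFD mouse 1 the 12 wells of plate column 1 stood apart, with a median of 4137 genes against 2548 in its other wells. In 3 of the 12, and in 1 other well of the mouse, the markers of at least 3 classes were high together (a marker mean of 4 or more on the log2 scale). The column held 5 of that mouse's 16 cycling cells, so shares are also given without it. These 5, in the adjacent rows E to I, were named KC-like, T cell-like and monocyte-derived or dendritic-like. All 5 had Mcm3, Mcm4, Mcm7, Pcna, Aurkb, Birc5, Cenpe and Top2a above 0 RPKM. In all 5 Rrm1, Rrm2, Tyms, Cdk1, Aurka and Plk1 were at 0. Whether these wells shared a source of RNA was not tested.

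Of the 46 cycling cells 23 were T cell-like. They were 7.54% of the T cell-like class (interval 4.84% to 11.1%), while 11 KC-like cells made up 4.70% of theirs (interval 2.37% to 8.26%) and 6 of 43 monocyte-derived or dendritic-like cells made up 13.95% (interval 5.30% to 27.9%). Endothelial-like cells, the largest class, had 3 of 476 (0.630%, interval 0.130% to 1.83%). No B cell-like cell was cycling, which allows a share of up to 1.22% by 3 counts of the total (exact upper limit 1.49%). The intervals treat cells as independent, and by mouse the classes overlapped, since 2 ND mice had no cycling KC-like cell and HFD mouse 3 no cycling T cell-like cell. The NK-like, hepatocyte-like and pDC-like classes had 1 cycling cell each, and the neutrophil-like and erythrocyte-like classes had none of 31 and 30 cells, which allows shares of up to 9.68% and 10% (exact upper limits 11.2% and 11.6%). Without column 1 the shares were 6.95% of T cell-like cells (21 cells), 4.31% of KC-like cells (10 cells) and 4 of 40 monocyte-derived or dendritic-like cells. These shares move with the thresholds. With 1 RPKM in place of 10, 9.66% of endothelial-like and 11.4% of B cell-like cells had 5 members, and with 3 members in place of 5 the shares were 8.40% and 6.504%. With 12 clusters the order of the highest classes turned, to 12.8% of T cell-like and 7.37% of monocyte-derived or dendritic-like cells.

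**Figure D1:**
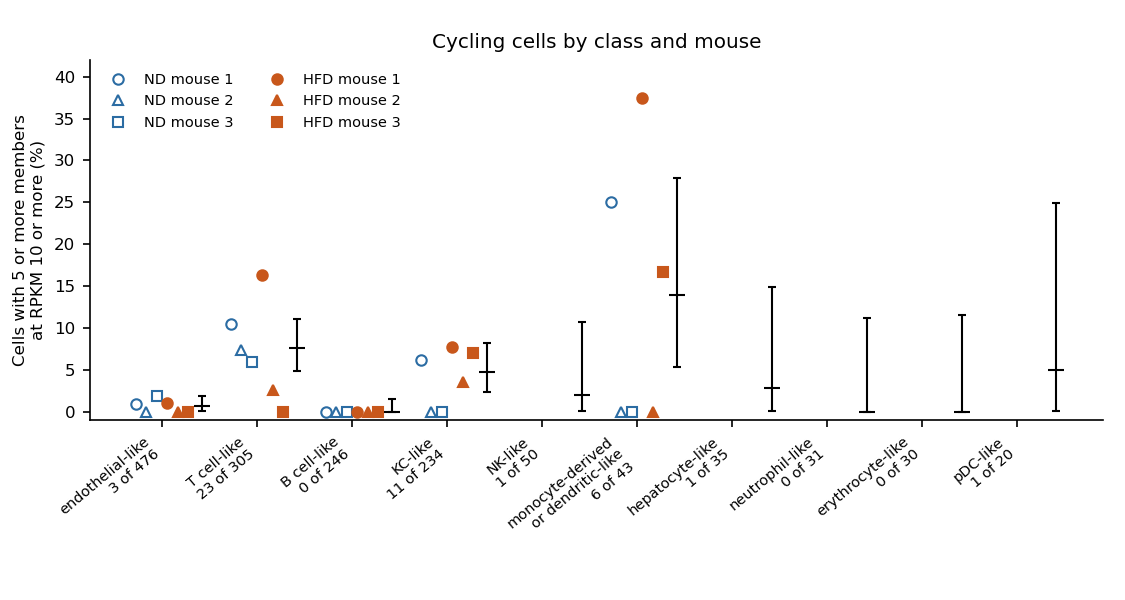
Percent of cells with 5 or more members at RPKM 10 or more, by class. Each symbol is 1 mouse, drawn for the 5 classes with at least 5 cells in every mouse, and the bar is the share over all cells of the class with its exact 95% interval. T cell-like mice ran from 0 to 16.3%, and every B cell-like mouse was at 0.

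Among T cell-like cells the share was 10.5%, 7.41% and 5.88% in the ND mice and 16.3%, 2.60% and 0 of 17 cells in the HFD mice. The HFD mice thus held both the highest and the lowest share. Among KC-like cells it was 6.12%, 0 of 24 and 0 of 38 cells in the ND mice and 7.69%, 3.57% and 6.98% in the HFD mice, so that ND mouse 1 lay among the HFD mice and the groups overlapped. Cycling monocyte-derived or dendritic-like cells came from 3 mice, 2 of 8 cells in ND mouse 1, 3 of 8 in HFD mouse 1 and 1 of 6 in HFD mouse 3, and 2 of the 3 in HFD mouse 1 were in column 1. Over all classes the mice gave 2.88% ± 1.20 on ND and 3.28% ± 2.29 on HFD (SD, n = 3 mice each), a difference smaller than the spread in either group. The HFD value includes column 1, without which HFD mouse 1 went from 5.54% to 3.97%. The lowest share of all, 0.955%, was in HFD mouse 2, which also had the fewest genes per cell, and the part of depth in it was not tested.

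The cycling cells of the classes differed in which members they had. T cell-like cells carried replication genes above all, with a median of 6 of the 10 replication members and 1 of the 21 mitotic members, and 10 of the 23 had no mitotic member at 10 RPKM. KC-like cells had a median of 4 replication and 3 mitotic members, and none of the 11 lacked a mitotic member. The 6 monocyte-derived or dendritic-like cells had a median of 3 replication and 6 mitotic members, with 1 of 6 lacking a mitotic one. Only 3 of these 6 had the same class by their highest markers, and they had 5, 2 and 2 replication and 0, 7 and 17 mitotic members. Of the other 3, a pair were column 1 wells with highest endothelial markers and 1 had highest B cell markers. At least 5 mitotic members were present in 16 cells, 9 of them T cell-like, 3 KC-like and 4 monocyte-derived or dendritic-like. Of the 9, a pair were column 1 wells with highest NK and endothelial markers, and of the 4, 1 was a column 1 well with highest endothelial markers and 1 was the cell with highest B cell markers. These counts describe few cells and were not tested, and the cells also differed in genes detected, with medians of 3313, 2715 and 4552 in the 3 classes.

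**Figure D2:**
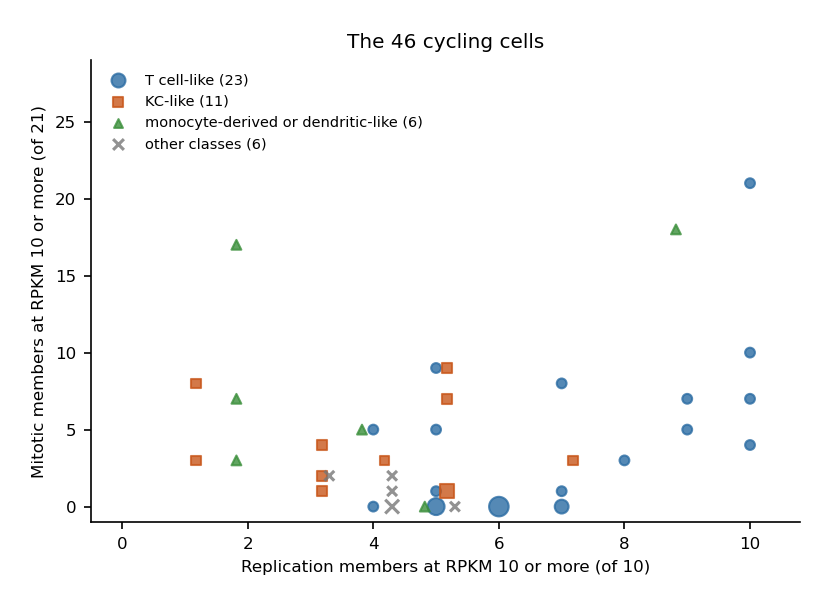
Replication members (of 10, horizontal axis) and mitotic members (of 21, vertical axis) at RPKM 10 or more in each of the 46 cycling cells. Larger symbols stand for several cells at 1 place, and symbols are shifted slightly sideways by class. T cell-like cells spread from 0 to 21 mitotic members, and the row at 0 is mostly T cell-like.

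The whole programme was seen in a single cell. One T cell-like cell of ND mouse 2 had all 32 members at 10 RPKM or more, with Mki67 at 80.8, Top2a at 141.6 and Stmn1 at 277.3 RPKM. Another 10 cells had 15 to 28 members. At the other end 618 cells had no member at this level and 464 had exactly 1. The threshold itself fell among cells with similar numbers of members. There were 30 cells with 4 members, with medians of 3 replication and 1 mitotic member, and 14 cells with 5, with medians of 4 and 0. They differed in median genes detected, 2756 against 3377, and 10 of the 30 were endothelial-like against 2 of the 14.

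The cell with 28 members, from HFD mouse 3, went against its class. It clustered with monocyte-derived or dendritic-like cells, but it had B lineage genes at high levels, with Cd79a at 1108, Cd79b at 793, Vpreb3 (a gene of the B lineage linked to the pre-B cell receptor) at 3609 and Pax5 at 457 RPKM. Ms4a1 and Blk, B lineage genes present in 76.8% and 48.4% of B cell-like cells, were at 0. Of the markers of the class it fell in, Lyz2 was at 57.98 RPKM (present in 97.7% of that class and 80.5% of B cell-like cells), while Ccr2, Cx3cr1, Itgax and Flt3, present in 76.7%, 55.8%, 44.2% and 30.2% of the class, were at 0. Classed by its highest markers it was the only cycling B cell-like cell, or 0.427% of the class by that rule. For 40 of the 46 cycling cells the cluster and the highest markers gave the same class, and of the 6 others 4 were in column 1.

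**Figure D3:**
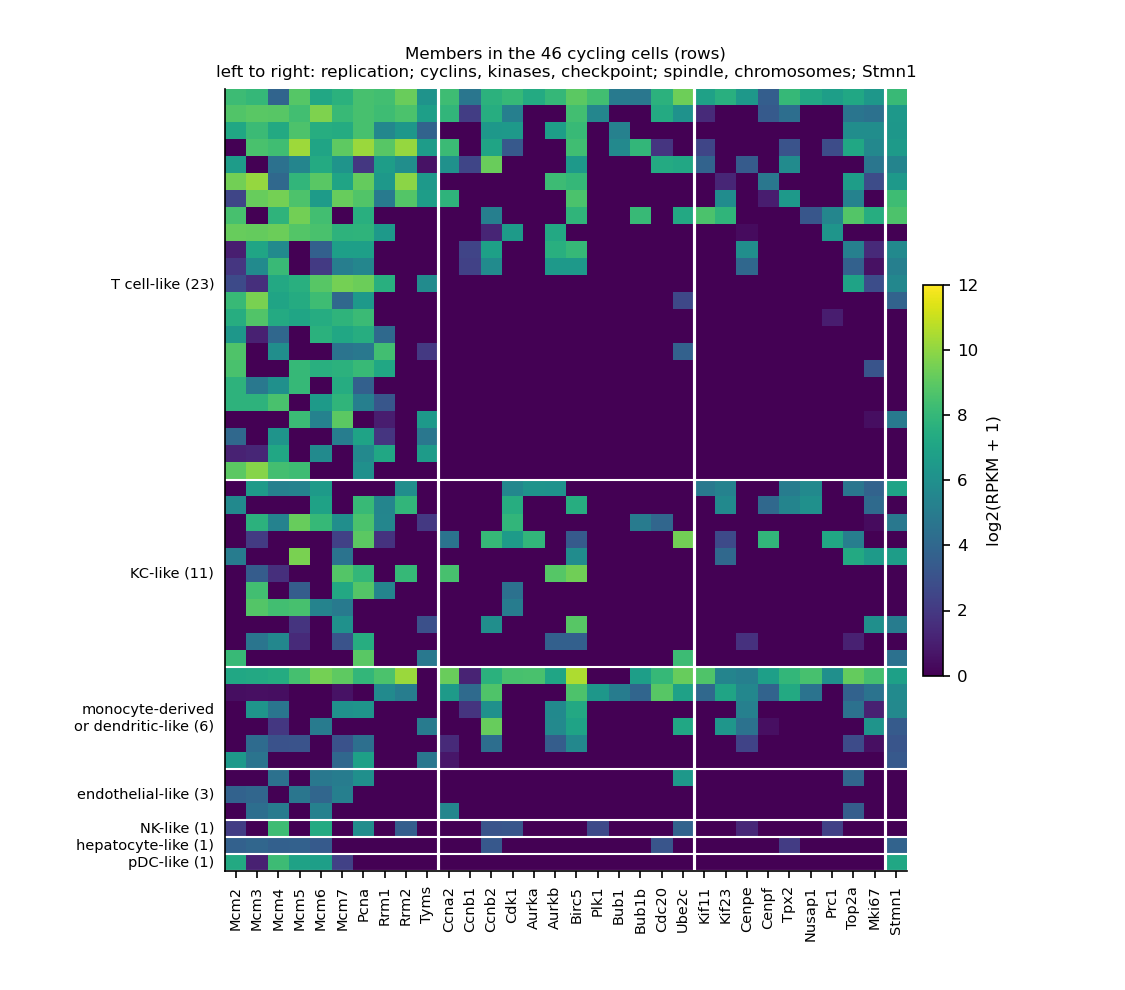
Level of each member (columns, in order of role) in each of the 46 cycling cells (rows, grouped by class), as log2(RPKM + 1). In 21 of the 23 T cell-like rows 5 or more of the 10 replication genes at the left are at 10 RPKM or more, while in 10 of the 23 no mitotic gene is.

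Replication genes were the members most cycling cells had, and also those most often found in other cells. Pcna was at 10 RPKM or more in 34 of 46 cycling cells (73.9%) and in 22.1% of the other cells. Mcm4 was in 69.6% against 5.48%, Mcm7 in 67.4%, Mcm6 in 63.04%, Mcm3 in 58.7%, Mcm5 in 54.3% and Mcm2 in 52.2%. Since the members define the cycling cells, these shares are descriptions. Of the nucleotide enzymes Rrm1, the large subunit of ribonucleotide reductase, was in 18 cycling cells, its partner Rrm2 in 13 and Tyms in 13. Rrm2 was in only 11 other cells and Rrm1 in 74, so that the large subunit was seen more widely than its partner.

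Mitotic genes were rarer, and few other cells had them. Birc5, the survivin of the chromosomal passenger complex, was in 20 cycling cells and 14 others, and its partner kinase Aurkb in 13 and 20. Top2a, which untangles the copied chromosomes, was in 18 and 7. Ccnb2 was in 15 and 9, Mki67, the proliferation antigen, in 13 and 18, and Ube2c, an E2 enzyme of the APC/C, in 12 and 18. Cdk1 was in 11 cycling cells, 6 of them KC-like, and Ccna2 in 10. Between 5 and 9 cycling cells had Bub1b, Cdc20, Kif11, Kif23, Cenpe, Cenpf, Tpx2, Nusap1 and Prc1. The rarest were Aurka in 4, Plk1 in 3 and Ccnb1 in 2 cycling cells. Bub1, a kinase of the spindle checkpoint, was in 4 cells and all were cycling. Stmn1 was in 23 of the 46 cycling cells and 29 others, and its median where present was 40.9 RPKM, against 99.4 for Pcna and 191 for Mcm2.

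**Figure D4:**
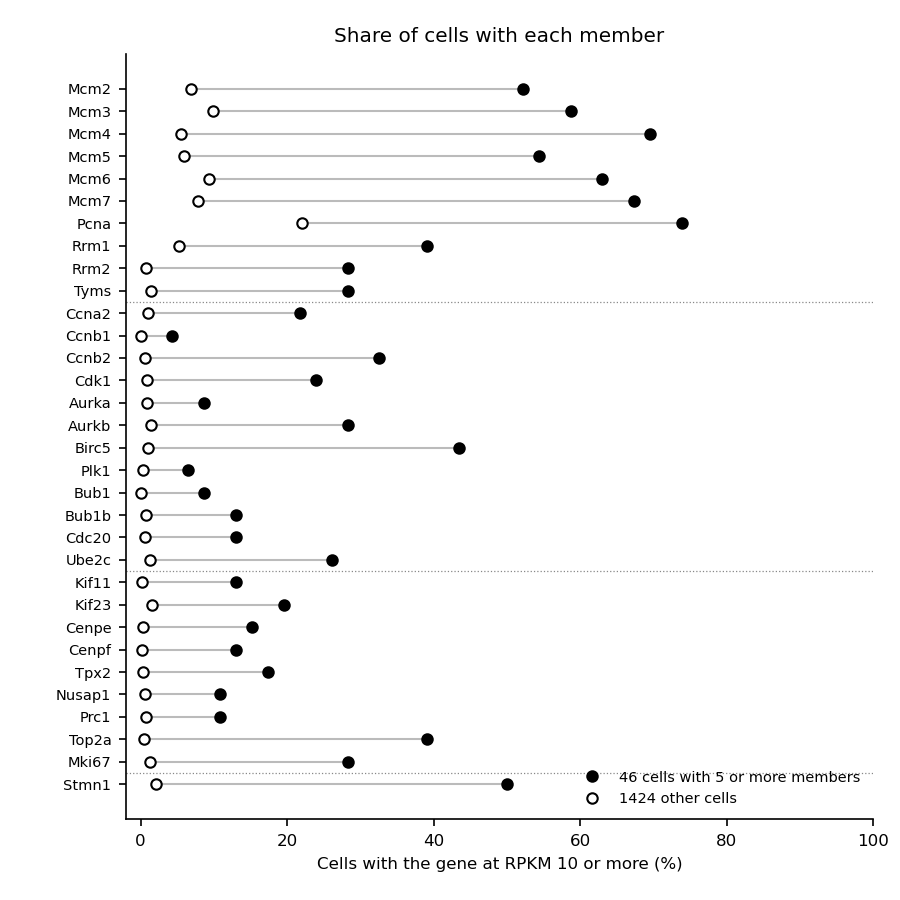
Percent of cells with each member at RPKM 10 or more, in the 46 cycling cells (filled) and all others (open). Pcna is highest in both, and the lines join the 2 shares of a gene, which differ because the members define the split.

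Some members appeared alone in classes with no cycling cell. Ube2c was at 10 RPKM or more in 23.3% of erythrocyte-like cells and Nusap1, a spindle protein, in 13.3%, though this class had no cell with 5 members. Kif23, a midzone kinesin, was in 19.4% of neutrophil-like cells and Mki67 in 6.45%. None of the 30 erythrocyte-like cells had Tfrc, the transferrin receptor, or Gata1, the erythroid factor, at that level, while all 30 had Alas2.

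Of the listed other genes of the cell cycle, the 5 in most cycling cells were Ccnd3, a D cyclin, in 38 (82.6% against 51.4% of other cells), Cdk4, the kinase it activates, in 32 (69.6% against 35.6%), Ccnd2 in 30 (65.2% against 41.4%), the histone variant H2afz in 25 (54.3% against 22.8%) and Dnmt1, which copies DNA methylation, in 24 (52.2% against 13.7%). These shares pool the classes, and 23 of the 46 cycling cells were T cell-like, a class where Ccnd2 and Ccnd3 were common in any cell. Within T cell-like cells Ccnd3 was in 23 of 23 cycling cells and 74.8% of the others, Ccnd2 in 20 and 79.8%, Cdk4 in 16 and 42.6%, H2afz in 16 and 23.8% and Dnmt1 in 13 and 20.6%. Within KC-like cells Ccnd3 was in 5 of 11 and 34.1%, Ccnd2 in 3 and 16.1%, Cdk4 in 7 and 26.5%, H2afz in 4 and 19.3% and Dnmt1 in 6 and 8.97%. None of these shares was tested, because cycling cells also had more genes detected, a median of 3306 against 2464.

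The cycling T cell-like cells were all in the larger of 2 T cell-like clusters, led by Cd3g, Cd3d, Cxcr3 and Cxcr6. The other cluster held 130 cells. HFD mouse 2 had the most T cell-like cells, 77, of which 2 were cycling, and its part in the split was not tested. Cxcr6, a receptor of liver-resident lymphocytes, was in 22 of 23 cycling cells and in 70.9% of the other T cell-like cells, and without HFD mouse 2 in 20 of 21 and 75.8%. In the 5 mice with cycling T cell-like cells Cxcr6 was in 57.3% to 88.2% of the other T cell-like cells, each below that mouse's share of cycling cells except in ND mouse 1, where it was in 5 of 6 and in 88.2%. Cd44 was in 14 of 23 and 43.6%, Il2ra, the inducible IL-2 receptor chain, in 7 of 23 and 14.9%, and Ccr7, a lymph node homing receptor, in 3 of 23 and 26.95%. Cd4 was in 9 of 23 and 32.98%, and Foxp3 in 1 of 23 and 1.42%. Cd8a was in 2 of 23 and 14.5%, while Cd8b1 was in 4 of 23 and 14.9%. Leaving out HFD mouse 2, Cd4 was in 8 of 21 and 39.61%, Cd8a in 2 of 21 and 16.91% and Cd8b1 in 3 of 21 and 17.39%. Without HFD mouse 2 Cd44 was in 13 of 21 and 52.2%, Il2ra in 7 of 21 and 16.4% and Ccr7 in 3 of 21 and 30.9%. Cxcr6 was itself a leading gene of the cluster that held all 23, while the other cells came from both clusters. Shares within that cluster alone were not computed, so these shares support nothing. These are counts over cells of 5 mice, with no test, and the cycling cells had a median of 3313 genes against 2547.

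Among KC-like cells Clec4f, a marker of resident cells, was in 11 of 11 cycling cells and 98.7% of the others, and Timd4, another, in 8 of 11 and 64.1%. Ccr2, a monocyte receptor, was in 3 of 11 and 4.48%, and Cx3cr1 in 2 of 11 and 5.83%. Hepatocyte markers moved with them too, with a median of the marker mean of 6.76 in cycling and 5.52 in other KC-like cells on the log2(RPKM + 1) scale, and their part was not tested. The 3 cycling endothelial-like cells all had the sinusoidal markers Stab2 and Clec4g, as did 97.04% and 99.2% of the others, and none had Wnt2, which 51.8% of the others had. One of the 3 had KC markers as its highest.

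Levels of the members were then compared between the 5 classes with at least 5 cells in every mouse, as mean log2(RPKM + 1) per class and mouse, each class against the mean of the other 4 within mice. A mean on this scale mixes how many cells have a gene with how much they have, and it understates changes of low genes. Of 6857 genes tested, 8 were members (Mcm2 to Mcm7, Pcna and Ccnb2), and the other 24 were too low in every class. In T cell-like cells 4 of the 8 were higher and none lower by limma's moderated test at an adjusted p under 0.05, where 18.9% of all genes tested were higher and 18.4% lower. Mcm2 and Mcm7 passed the filter only through T cell-like cells, so this count and the median difference of the 8, 0.59 against 0.01 over all genes, describe them and support nothing. Without a filter 4 of all 32 members were higher, beside 11.2% of 14915 genes, so the share of the members was near that of all genes.

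Pcna in T cell-like cells was at 3.89, 2.79 and 3.16 in the ND mice and 3.20, 1.57 and 2.44 in the HFD mice, a mean of 2.84 against 1.66 in the other classes. It was higher by 1.18 (SE 0.30, limma adjusted p = 0.00252), and remained called in 18 of 18 alternatives (adjusted p up to 0.0264). Mcm2 was at 1.86, 2.79 and 1.34 on ND and 1.84, 0.82 and 0.81 on HFD, higher by 0.92 (SE 0.22, limma adjusted p = 0.00179). It was tested here because this class lifted it over the filter, and without a filter its limma adjusted p was 0.00393. HFD mouse 2 was lowest for Pcna, and both HFD mice 2 and 3 were low for Mcm2.

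Mcm6 in T cell-like cells was at 2.54, 1.66 and 1.76 on ND and 2.24, 1.01 and 1.45 on HFD, higher by 0.90 (SE 0.25, limma adjusted p = 0.00494). The call was lost where classes came from the highest marker of each cell (adjusted p = 0.0790) and, without a filter or column 1, where only cells whose cluster and highest markers gave the same class were kept (adjusted p = 0.127). Mcm4 was at 1.98, 1.05 and 1.29 on ND and 2.54, 0.61 and 0.38 on HFD, higher by 0.65 (SE 0.21, limma adjusted p = 0.0158), and was not called without ND mouse 1 (adjusted p = 0.101), without HFD mouse 1 (adjusted p = 0.119) or without a filter and the cycling cells, which lowers the members by construction (adjusted p = 0.0866), and was called in the other 13 of 16 alternatives. The mice with the highest Mcm4 were ND mouse 1 and HFD mouse 1, which also had the highest shares of cycling T cell-like cells. Mcm4 is 1 of the members that define a cycling cell and was in 21 of those cells, so the 2 values are tied by construction. With 12 clusters, which moved part of the T cell-like cells to a cluster named NK-like, 11 of 13 members tested were higher. The share of all genes higher was not computed in that setting, so this count is a description and not a result about the members. The median T cell-like cell had 2588 genes, against 2573 in endothelial-like, 2436 in B cell-like, 2340 in KC-like and 3261 in monocyte-derived or dendritic-like cells.

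**Figure D5:**
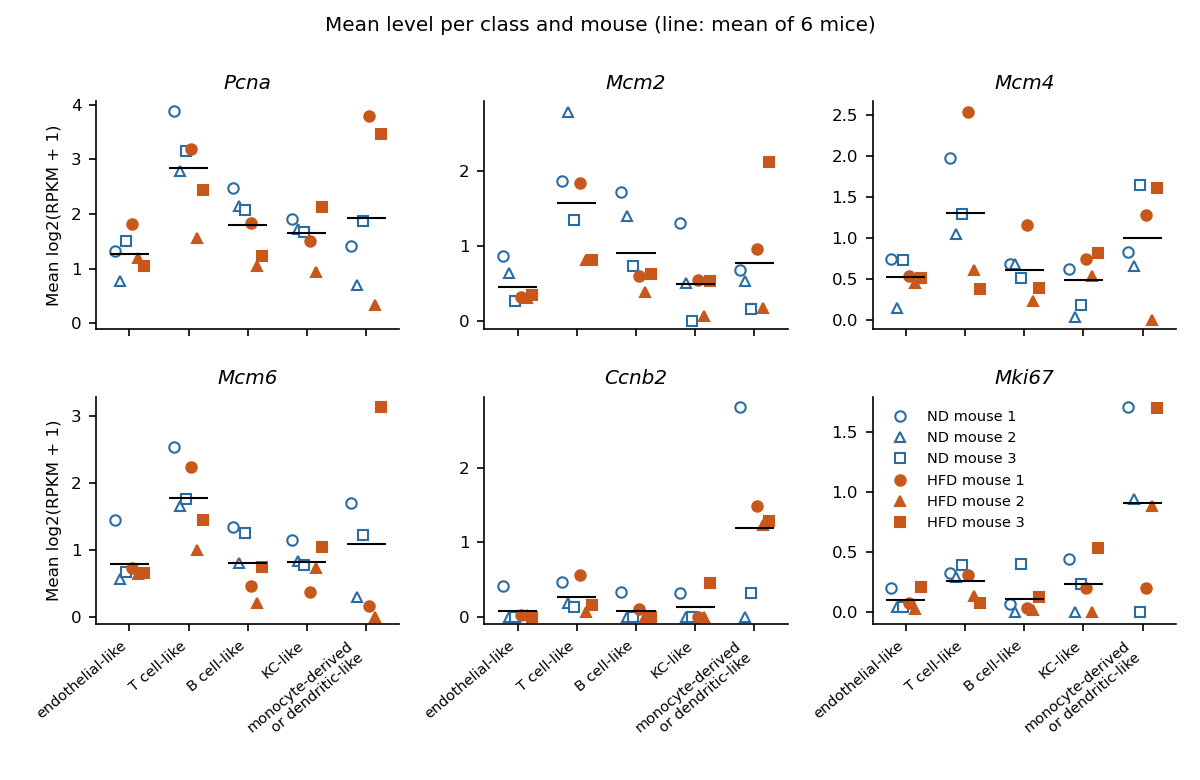
Mean log2(RPKM + 1) of 6 members by class. Symbols are single mice and the line is the mean of 6 mice. Pcna, Mcm2, Mcm4 and Mcm6 are highest in T cell-like cells on average, while Ccnb2 and Mki67 are highest in monocyte-derived or dendritic-like cells, where the mice differ most.

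In monocyte-derived or dendritic-like cells 1 member was called. Ccnb2, a B cyclin, was at 2.82, 0 and 0.32 on ND and 1.49, 1.24 and 1.28 on HFD, higher by 1.06 than in the other classes (SE 0.20, limma adjusted p = 5.59e-05). This was 1 of the 8 members, with none lower, a share below that of all genes, where 50.3% of all genes tested were higher and 10.4% lower and the median gene was higher by 0.54, and Ccnb2 passed the filter only through this class. It fell below the filter without the cycling cells, without column 1 and without ND mouse 1, so that it was not tested there. Without a filter all 32 members could be tested, and 13 were higher in this class, where 24.8% of 14915 genes were. They were Ccnb2, Cenpe (higher by 0.62, SE 0.11, limma adjusted p = 0.000120), Mki67 (higher by 0.73, limma adjusted p = 0.000777), Birc5, Aurkb, Kif23, Ccnb1, Tyms, Kif11, Cdc20, Stmn1, Ccna2 and Ube2c. All but Tyms and Stmn1 are among the 21 mitotic members, and none of the MCM genes and Pcna was called in this class.

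The class held 43 cells, among them the cell with B lineage genes. Without a filter and without the cycling cells 4 of the 32 were higher (Ccnb2, Mki67, Kif23 and Tyms) and none lower, beside 20.9% and 9.55% of 14915 genes. The cycling cells were chosen by these same members, so that leaving them out lowers the members by construction and the fall in the count is not a result. With only the cells whose cluster and highest markers gave the same class, and without column 1, where the mice had 6, 6, 6, 5, 4 and 1 such cells, 4 were higher (Ccnb2, Cenpe, Mki67 and Kif23) and Mcm5 and Mcm7 were lower, beside 18.2% and 11.7% of genes. With 12 clusters, where this class took in pDC-like and neutrophil-like cells, no member was called in it. Mki67 was at 1.71, 0.95 and 0 on ND and 0.20, 0.88 and 1.70 on HFD, so that 1 mouse had none.

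Of the 5 classes tested, endothelial-like cells had the lowest mean Pcna, at 1.32, 0.76 and 1.505 on ND and 1.82, 1.19 and 1.04 on HFD. The difference from the other classes was -0.78 (SE 0.30, limma adjusted p = 0.0407), 1 of 8 members lower, where 20.8% of genes were, and none was higher, where 16.1% were. It was made in 6 of 18 alternatives. In B cell-like and KC-like cells limma called 0 of 8 members in either direction, with 7.83% and 8.39% of genes higher and 25.9% and 34% lower. Median differences of the 8 were -0.17 and -0.30 there, against -0.30 and -0.41 over all genes.

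Of 28 other cell cycle genes tested, 11 were higher and 2 lower in T cell-like cells, beside 18.9% and 18.4% of all genes. Ccnd2 was higher by 4.42 (SE 0.19, limma adjusted p = 4.48e-17), Ccnd3 by 2.55 (SE 0.21), Rbl2, a pocket protein that holds cells out of the cycle, by 1.89, Cdk4 by 1.33, Slbp, the histone mRNA binding protein, by 1.18 and Hmgb2 by 1.05. Dut, Cdt1, Bub3, Smc4 and Dnmt1 were higher by 0.59 to 0.79, and the call of Dut, which passed the filter only through this class, supports nothing. Lower there were Ccnd1 (-1.58) and Cdkn1a, a CDK inhibitor (-0.68). Cdkn1a passed the filter only through monocyte-derived or dendritic-like cells, so that the lower calls of Cdkn1a here and in KC-like and B cell-like cells, and of Dut in KC-like cells, support nothing. Ccnd1 was higher in endothelial-like cells (1.63, SE 0.25, limma adjusted p = 4.26e-06), which also had Ccnd2 higher by 1.16 and 7 of the 28 lower, a share near the 20.8% of all genes. The 7 were Hmgb2 (-1.07), Myc (-0.90), Cdkn2d, Cdt1, Ccnd3, Rbl2 and Cdc25b (-0.56 to -0.76). KC-like cells had none higher and 17 lower, with Ccnd3 at -2.54 and Ccnd2 at -1.67, beside 34% of all genes lower and a median gene at -0.41. The others of the 17 were Cdkn2d (-1.15), Cdk4 (-1.13), and, between -0.50 and -0.99, Hmgb2, Smc4, Bub3, Rbl2, Cdkn1b, H2afx, Dut, Dnmt1, Cdk2, Slbp, Cdt1, Cdkn1a and H2afz. B cell-like cells had Cdc25b, a phosphatase that activates CDK1, higher by 1.44 and Cdt1, a licensing factor, by 1.12, and 8 of the 28 lower, a share near the 25.9% of all genes. The 8 were Ccnd3 (-1.95), Ccnd2 (-1.66), Ccnd1 (-1.42), Cdk4 (-1.13), H2afz (-1.09), E2f4, Bub3 and Cdkn1a (-0.60 to -0.75).

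In monocyte-derived or dendritic-like cells 14 of the 28 were higher and 2 lower, shares near the 50.3% and 10.4% of all genes. Ccnd3 was higher by 2.55, the CDK inhibitors Cdkn1a and Cdkn2d by 2.0 each, H2afz by 1.71, Hmgb2 by 1.43, Racgap1, a midzone partner of Kif23, by 1.33 and Cks1b by 1.30. E2f2, Cks2, Ccnd1, E2f4, Bub3, Rb1 and Cdk2 were higher by 0.69 to 1.01. Of the 14, Cdkn1a, Cks1b, Cks2, E2f2, Racgap1 and Rb1 passed the filter only through this class, so that their calls and the count support nothing. Ccnd2 was lower (-2.26) as was Cdt1 (-0.47). The class also had the most genes per cell and the highest median over all genes, whose part was not tested.

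No member passed the test between diets. Within classes limma called 0 members at an adjusted p under 0.05 in any of the 5, of 2 tested in endothelial-like, 7 in T cell-like, 1 in B cell-like, 2 in KC-like and 6 in monocyte-derived or dendritic-like cells, and 0 at an unadjusted p under 0.05. Over all genes 0% were called in 4 classes and 0.0306%, or 1 gene, in KC-like cells, with 1.85%, 3.44%, 4.1%, 2.26% and 3% at an unadjusted p under 0.05 in the same order of classes. A single value in 3 mice against 3 cannot go below p = 0.1 in an exact permutation test.

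All 7 members tested in T cell-like cells were lower on HFD, with a median of -0.77, beside 76.5% of all genes tested in the class lower and a median of -0.29, and none passed the test. Pcna differed by -0.88 (SE 0.56), Mcm2 by -0.84 (SE 0.56), Mcm7 by -0.79 (SE 0.54), Mcm5 by -0.77 (SE 0.53), Mcm6 by -0.42, Mcm4 by -0.26 and Mcm3 by -0.15, with a limma adjusted p of 0.9996 for each. HFD mice 2 and 3, the latter with 17 T cell-like cells, lay below every ND mouse for all 7, and HFD mouse 1 lay among or above the ND mice. In monocyte-derived or dendritic-like cells the 6 members tested differed by 1.27 (Mcm3), 1.21 (Pcna), 0.75 (Mcm5), 0.29 (Ccnb2), 0.02 (Mcm6) and -0.09 (Mcm4), with SEs of 0.90 to 0.95. Pcna there was at 1.42, 0.69 and 1.88 on ND and 3.80, 0.34 and 3.47 on HFD, so that HFD mouse 2 was the lowest of all.

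In B cell-like cells 4 of 32 members did not overlap between diets, all lower on HFD, where 7.79% of all genes seen in the class were lower without overlap and 1.01% higher. Pcna was at 2.48, 2.14 and 2.08 on ND and 1.84, 1.04 and 1.23 on HFD (-0.86, SE 0.49, limma adjusted p = 0.999). Mcm2 was at 1.71, 1.40 and 0.73 against 0.60, 0.39 and 0.62, Mcm5 at 1.24, 0.71 and 1.65 against 0.65, 0.48 and 0.33, and Mcm6 at 1.35, 0.81 and 1.26 against 0.47, 0.22 and 0.75. The gap between the groups was small for each, and the fewest genes per cell were in HFD mouse 2. Elsewhere the members without overlap were 1 of 32 in T cell-like cells (Prc1, lower, where 6.34% of genes were, and 1.09% higher), 1 in KC-like cells (Cdk1, higher, where 1.91% were, and 4.41% lower), 1 in monocyte-derived or dendritic-like cells (Mcm3, higher, where 2.75% were, and 3.3% lower), and in endothelial-like cells Aurka and Nusap1 higher (1.62% of genes) and Aurkb lower (4.62%). Cdk1 in KC-like cells was at 0.16, 0 and 0.16 on ND and 0.38, 0.50 and 0.86 on HFD.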

How the data were processed

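Single cells of 6 mice were sequenced as single reads with no molecular identifiers. According to the study's methods and the processing notes, the authors aligned reads with STAR to mm10, used uniquely mapped reads, computed RPKM with rpkmforgenes, removed low-quality cells and removed doublets with Scrublet before depositing the table. The deposited values are RPKM for 14915 genes in 1470 cells, with mouse and diet from the labels, and no column was left unused (0). No raw counts were analysed here, so depth was described by genes detected.

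Classes were made by spectral clustering of log2(RPKM + 1) over 1000 variable genes and 20 principal components (scikit-learn 1.9.0, 15 neighbours). The plan named 12 clusters as the main setting and 16 as the alternative. The 2 were exchanged after the clusters were seen, on their markers, because 12 joined T cells with NK cells and monocyte-derived cells with pDCs and neutrophils, and both are reported. A cluster was named by its highest marker list. Members were left out of clustering. No doublet caller was run here, since the authors had removed doublets. Cells of a mouse were averaged, with a pseudocount of 1, and fitted with limma 3.58.1 (R 4.3.3) without a trend, with the mouse as a block between classes and no block between diets, for classes with at least 5 cells in each mouse and genes with a mean of at least 1 in at least 1 class (between diets, over the 6 mice). Benjamini-Hochberg adjustment was over all genes tested. The scripts were tested on simulated data.

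All 32 members were named, with values in every mouse for those called. Of the other cell cycle genes, those called and the 5 in most cycling cells were named. Subset and single-class genes outside it were picked with their values in view. Members and lists were chosen with earlier results of these data known, and the promoter table was searched for the members found in most cycling cells. The labels do not say that mice were prepared on separate days, and p-values measure the spread between these mice only. The low RPKM values lay near whole reads in 94.2% of cases (within 0.05 of a read, after a length correction for each gene, against 14.1% for jittered values), but the depth of a cell was the same within 5 percent in only 72.2% of 735 cells when estimated again in part of the data, so thinning to 1 depth was not run.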

Additional observations from a re-analysis of the deposited data

How the results depend on the processing

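Of all cells, 3.13% were cycling, 12.993% at a threshold of 1 RPKM (T cell-like 18.033%, KC-like 15.385%, endothelial-like 9.664%, B cell-like 11.382%), 11.156% with 3 or more members (19.016%, 13.248%, 8.403% and 6.504%) and 1.088% by the 21 mitotic members alone. B cell-like cells were at 0.427% with classes from the highest markers. With 12 clusters, the number first planned, 12.849% of T cell-like and 7.368% of monocyte-derived or dendritic-like cells were cycling, within the spread of the mice. Leaving out each mouse in turn gave 2.54 to 3.72% of all cells, 5.859 to 9.211% of T cell-like, 3.846 to 5.612% of KC-like, 8.571 to 17.143% of monocyte-derived or dendritic-like, 0.474 to 0.804% of endothelial-like and 0 to 0% of B cell-like cells. Members higher in T cell-like cells, 4 in the report, were 1 with a pseudocount of 0.1, where 1 member passed the filter, 11 of 13 with 12 clusters, and 3 to 5 without 1 mouse (3 without ND mouse 1 or HFD mouse 1). Members higher in monocyte-derived or dendritic-like cells, 1 in the report, were 0 with a pseudocount of 0.1, with 12 clusters, with classes from the highest markers, without the cycling cells and without column 1, 3 with the log2 of the mean RPKM, 13 without a filter, 4 without a filter and without the cycling cells, 4 without a filter in cells whose cluster and highest markers agreed and without column 1, and 0 to 4 without 1 mouse (0 of 7 tested without ND mouse 1, 3 of 9 without ND mouse 2, 4 of 11 without ND mouse 3, 3 of 10 without HFD mouse 1 and 2 of 9 without HFD mouse 2). Lower there were 1 with the log2 of the mean, 1 with classes from the highest markers, and 2 in the agreeing cells. Members lower in endothelial-like cells, 1 in the report, were 0 without a filter (also without the cycling cells, or in agreeing cells), with 12 clusters, with classes from the highest markers and with no replicate block, 5 with weights by cell number and 0 to 1 without 1 mouse (1 only without HFD mouse 2). Lower in B cell-like cells was 1 with weights. Lower in KC-like cells were 3 with weights and 1 with the log2 of the mean, and higher there was 1 in agreeing cells. For most of these settings, among them 12 clusters, the share of all genes higher or lower was not computed. The counts of members are therefore descriptions and not results about the members. The cause of these changes was not tested, save that filters and settings changed how many members were tested, and that leaving out the cycling cells, which the members themselves chose, lowers the members by construction. The settings on column 1, on agreeing cells and on the absence of a filter together with cells left out were added after the data were seen. With 10 principal components no cluster was named monocyte-derived or dendritic-like, so it gave no value for that class, and thinning to 1 depth was not run. No called direction was reversed, though Mcm5 and Mcm7, not called in monocyte-derived or dendritic-like cells in the report (0.23 and 0.13 higher), were the 2 lower in agreeing cells. Between diets the replicate block, which uses the mouse numbers of the labels, called 0 members in each class, as did no block. A pairing of the mice by these numbers was not shown, since correlations of deviations from the diet means were -0.20 to 0.19, and not every pair was over 0.1. With 3 mice per diet they cannot exclude one, and in B cell-like cells they were 0.19, 0.06 and 0.14. Depth per cell is unknown, so a gene at 0 RPKM may be one not caught.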
